A study of Mus musculus with 2 samples.

Results

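The genes described here encode the core machinery that releases neurotransmitter from synaptic vesicles, and they were followed in maps of open chromatin from mouse cerebral cortex. They were 8 listed genes, Snap25, Syt1, Stx1a, Vamp2, Syp, Syn1, Syn2 and Cplx1, taken by name from GENCODE release M21, out of 21938 protein-coding genes on the autosomes and the X and Y chromosomes. The rule uses their names and no measured value, although earlier results of these data were known when they were listed, and all 8 were found in the annotation.

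A vesicle fuses with the presynaptic membrane when the vesicle SNARE protein synaptobrevin 2 (Vamp2) zips together with syntaxin 1A (Stx1a) and SNAP-25 (Snap25) on the plasma membrane. Synaptotagmin 1 (Syt1) senses the calcium that enters with an action potential, and complexin 1 (Cplx1) binds the assembled SNARE complex and controls its firing. Synapsins 1 and 2 (Syn1, Syn2) are phosphoproteins that hold vesicles in reserve behind the release site, and synaptophysin (Syp) is an abundant vesicle membrane protein that binds synaptobrevin. These proteins are best known from neurons, and several of the genes are textbook targets of REST, a repressor that silences neuronal genes outside neurons through a sequence called RE1.

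DNase-seq cuts nuclei with DNase I, which reaches DNA that is free of nucleosomes, and sequences the cut ends. A peak marks an open region, and a footprint is a short protected stretch inside it. The tissue was left cerebral cortex from 2 male B6CASTF1/J mice aged 2 months, the F1 of C57BL/6J and CAST/EiJ, with no treatment and no second group. The labels number the samples as biological replicates 1 and 2, from separate animals listed under a common donor record. Values from 2 samples allow no test, so counts are set beside the same share over all genes, and the spread is the difference between the 2 samples. Each animal gave 1 sample, so a difference between animals and one between libraries cannot be told apart.

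Replicate 1 had 63928 peaks and replicate 2 had 76440, and the 44745 regions found in both are called shared. The sequencing depth is unknown. Peak heights are the authors' own values, in units whose scaling the sources used here do not give, and the smallest step between heights was 0.00432 in replicate 1 and 0.00675 in replicate 2. Heights were therefore ranked within each replicate, as the percentile among coding genes with a promoter peak in that replicate. The markers fixed for the tissue check gave a promoter peak in both replicates for 3 of 6 excitatory neuron genes, 0 of 3 inhibitory neuron genes, 4 of 5 astrocyte genes, 3 of 5 oligodendrocyte genes, 1 of 4 microglia genes, 0 of 3 endothelial genes and 0 of 5 genes of other regions and organs. The defining inhibitory genes Gad1, Gad2 and Slc32a1 had a promoter peak in replicate 1 alone (heights 0.984, 1.02 and 1.47). With the longer of the authors' peak lists, which were not the ones used here, all 3 had one in both replicates, as did 5 of 6 excitatory neuron genes and 5 of 5 astrocyte genes. The counts of the oligodendrocyte, microglia and endothelial genes and of the genes of other regions and organs did not change. In bulk tissue, fewer cells of a type and less open chromatin per cell cannot be told apart.

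The promoter sequence of 6 of the genes is printed because the footprints and motifs described further on lie in it. Each stretch runs 5′ to 3′ on the gene's own strand, covers the upstream bases of the promoter peak and ends before the transcribed sequence. It was read from the reference genome GRCm38.p6 (mm10), which is C57BL/6J sequence. Capitals mark bases that lay inside a footprint in both replicates.
Snap25, chr2:136713241-136713452, plus strand: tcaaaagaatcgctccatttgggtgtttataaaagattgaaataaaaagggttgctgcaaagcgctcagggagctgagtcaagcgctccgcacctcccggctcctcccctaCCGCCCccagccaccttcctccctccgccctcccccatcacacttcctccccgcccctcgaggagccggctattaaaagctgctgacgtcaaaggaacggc
Stx1a, chr5:135023341-135023481, plus strand: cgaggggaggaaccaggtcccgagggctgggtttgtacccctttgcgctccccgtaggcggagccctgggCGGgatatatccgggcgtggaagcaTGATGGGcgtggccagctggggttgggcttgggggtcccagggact
Vamp2, chr11:69088401-69088489, plus strand: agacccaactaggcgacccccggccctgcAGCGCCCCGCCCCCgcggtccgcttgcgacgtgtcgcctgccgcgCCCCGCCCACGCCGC
Syn1, chrX:20921005-20921180, minus strand: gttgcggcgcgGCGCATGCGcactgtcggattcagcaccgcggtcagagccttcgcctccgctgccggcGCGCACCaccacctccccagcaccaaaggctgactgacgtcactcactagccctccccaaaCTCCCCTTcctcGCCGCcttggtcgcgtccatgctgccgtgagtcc
Syn2, chr6:115134761-115134901, plus strand: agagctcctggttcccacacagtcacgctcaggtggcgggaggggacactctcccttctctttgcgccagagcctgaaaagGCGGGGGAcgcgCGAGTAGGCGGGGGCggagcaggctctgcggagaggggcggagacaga
Cplx1, chr5:108550025-108550200, minus strand: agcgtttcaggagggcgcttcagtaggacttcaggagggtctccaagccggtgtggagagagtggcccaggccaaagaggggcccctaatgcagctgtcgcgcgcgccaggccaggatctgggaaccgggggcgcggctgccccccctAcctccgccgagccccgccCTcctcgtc

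Every gene of the release machinery had an open promoter in both animals. A promoter peak, lying within 500 bp of an annotated transcription start site (TSS), was found in both replicates for 8 of 8 genes, against 56.2% of all coding genes. In each replicate alone the count was also 8 of 8, against 61.6% in replicate 1 and 57.1% in replicate 2. It stayed at 8 of 8 with the longer peak lists (61.0% of all coding genes), with a promoter window of 2000 bp (59.8%) and with one of 100 bp (51.9%). The promoters were of middling height. The median percentile of the 8 genes was 50.5 in replicate 1 and 45.7 in replicate 2. Each percentile ranks among the promoters open in that replicate, 13503 in replicate 1 and 12529 in replicate 2. The 12324 coding promoters open in both replicates had a median height of 3.73 in replicate 1 (quartiles 2.12 and 5.72). In replicate 2 their median was 2.11 (quartiles 1.17 and 3.55). The 8 genes had median heights of 3.42 and 1.90, somewhat below these.

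**Figure D1:**
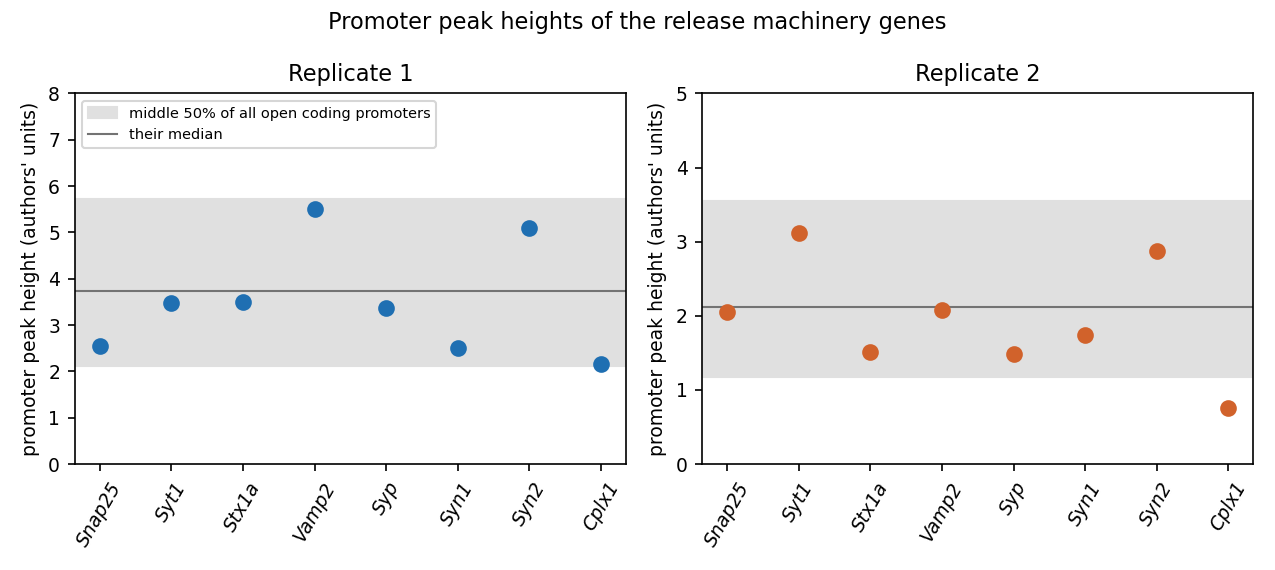
Promoter peak height (y axis, the authors' units, a scale of its own for each replicate) of the 8 genes, 1 point per gene, over the median line and the middle 50% of 12324 coding promoters open in both replicates. All 8 points lie within the middle band in replicate 1, and Cplx1, at 0.756, lies below it in replicate 2.

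Among the SNARE genes, Vamp2 (ENSMUSG00000020894.16, chr11:69088490-69092384, plus strand) had the tallest promoter of the 8 in replicate 1 and a middling rank in replicate 2. Its height was 5.51 in replicate 1 and 2.08 in replicate 2, at percentiles 75.04 and 50.01. Stx1a (ENSMUSG00000007207.10, chr5:135023482-135051100, plus strand) had heights of 3.50 and 1.51, at percentiles 51.5 and 35.9. Snap25 (ENSMUSG00000027273.13, chr2:136713453-136782428, plus strand) had heights of 2.55 and 2.05, at percentiles 38.0 and 49.4. Vamp2 and Stx1a thus ranked higher in replicate 1 and Snap25 higher in replicate 2, so the order of Stx1a and Snap25 was opposite in the 2 animals.

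Snap25 carried a second open region close to the first. A peak 1053 bp upstream of its TSS, at chr2:136712141-136712400, had a height of 1.77 in replicate 1 and 2.04 in replicate 2. In replicate 2 it was nearly as tall as the promoter peak itself. A lower peak in the first part of the gene, 547 bp from the TSS in replicate 1 and 643 bp in replicate 2, had heights of 0.967 and 0.614.

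Of the genes that control fusion, Syt1, the calcium sensor (ENSMUSG00000035864.14, chr10:108497650-109010982, minus strand), had heights of 3.47 and 3.11, at percentiles 51.2 and 69.6. Cplx1 (ENSMUSG00000033615.9, chr5:108518554-108550024, minus strand) had heights of 2.15 and 0.756, at percentiles 31.8 and 12.9. Cplx1 was the lowest of the 8 in each animal, and Syt1 was the tallest of the 8 in replicate 2.

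The vesicle genes split in rank. Syn2 (ENSMUSG00000009394.13, chr6:115134902-115282006, plus strand) had heights of 5.09 and 2.88, at percentiles 70.6 and 65.8. Syn1 (ENSMUSG00000037217.15, chrX:20860511-20921004, minus strand) had heights of 2.50 and 1.74, at percentiles 37.1 and 41.9. Syp (ENSMUSG00000031144.15, chrX:7638471-7653256, plus strand) had heights of 3.37 and 1.48, at percentiles 49.8 and 35.2. Syn2 outranked Syn1 in both animals with no overlap of their percentiles, while Syp ranged across the values of Syn1.

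Syn1 and Syp lie on the X chromosome, of which male cells have a single copy. Of 948 coding genes on the X chromosome, 399 (42.1%) had a promoter peak in both replicates, and their median heights were 1.87 in replicate 1 and 1.24 in replicate 2. Ranked among those 399 promoters only, Syn1 stood at percentiles 69.9 and 70.9 and Syp at 87.0 and 59.9. Both genes thus stood above the median of open X promoters in each animal.

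Ordered by the mean of both percentiles, Syn2 came first (68.2 ± 3.34, SD, n = 2), then Vamp2 (62.5 ± 17.7), Syt1 (60.4 ± 13.0), Snap25 (43.7 ± 8.08), Stx1a (43.7 ± 11.03), Syp (42.5 ± 10.3), Syn1 (39.5 ± 3.39) and Cplx1 (22.3 ± 13.4). The ranges of Syn2, Vamp2 and Syt1 overlapped each other, as did those of Snap25, Stx1a, Syp and Syn1. These sets were not separate, because the range of Stx1a also overlapped those of Vamp2 and Syt1. In replicate 1 Stx1a, at 51.5, ranked just above Syt1, at 51.2. Syt1 and Snap25 were neighbours without overlap, at 51.2 or more against 49.4 or less, a gap smaller than the SD of either gene. The 51.2 is from replicate 1 and the 49.4 from replicate 2, which rank among different numbers of promoters. This gap therefore sets no order. Cplx1, at 31.8 or less, lay below Syn1, at 37.1 or more.

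The deposited track of false discovery rates (FDR) put every base of these promoter peaks under an FDR of 0.001 in both replicates. The same share was not taken over the promoter peaks of all coding genes. Whether it sets these genes apart was therefore not tested. The lowest FDR inside the Syn1 peak was 5.66e-28 in replicate 1 and 1.65e-31 in replicate 2. For Vamp2 it was 2.35e-40 in replicate 1 and 1.19e-05 in replicate 2. The lowest FDR was higher in replicate 2 for every gene of the list except Syn1, so a higher value there was not particular to Vamp2. The rise was widest for Vamp2. Syn2 went from 3.97e-39 in replicate 1 to 9.05e-21 in replicate 2. Cplx1 went from 1.22e-23 to 1.42e-10, and Snap25 only from 3.47e-20 to 1.57e-19.

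The genes differed in the ratio of their heights between the animals. The log2 ratio of promoter heights, replicate 2 over replicate 1, had a median of -0.77 over 12324 promoters open in both (quartiles -1.02 and -0.49), on the unequal scales of the replicates, so each gene is read against that median. Syt1 (-0.16) and Snap25 (-0.31) lay above the upper quartile. Syp (-1.19), Stx1a (-1.22), Vamp2 (-1.41) and Cplx1 (-1.51) lay below the lower quartile, and Syn1 (-0.52) and Syn2 (-0.82) lay between the quartiles. Cplx1 stood at percentile 2.14 and Vamp2 at 4.11 of all these ratios, and Syt1 at 91.1.

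Base composition moved with this ratio. Across the 12324 genes the Spearman correlation of the ratio with the GC content of the promoter was -0.313, as a description across genes that share the same 2 libraries. The median ratio was -0.60 in the quartile of promoters lowest in GC and -0.94 in the highest. The promoter of Snap25 was 48.4% GC and that of Syt1 57.6%, while Vamp2 was 63.8%, Cplx1 63.6%, Stx1a 60.6% and Syp 54.3%. Syn1, at 63.9%, and Syn2, at 65.1%, had the highest GC content of the 8 and ratios inside the quartiles. The part of base composition in the members' ratios was not tested.

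**Figure D2:**
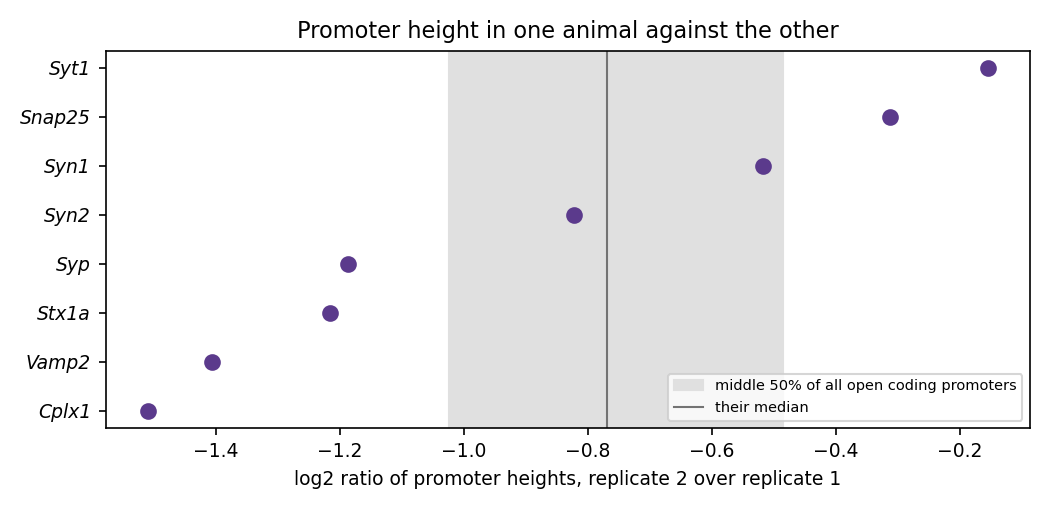
Log2 ratio of promoter peak height, replicate 2 over replicate 1 (x axis), 1 point per gene, with the median line and the middle 50% of 12324 coding promoters. Syt1 and Snap25 lie to the right of the band, and Syp, Stx1a, Vamp2 and Cplx1 lie to the left of it, down to -1.51.

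Footprints lay in the promoter peaks of all 8 genes in both animals, against 97.7% of the coding genes with a promoter peak in both, so their presence does not set these genes apart. There were 36 footprints in replicate 1 and 31 in replicate 2, with median widths of 12.5 and 9 bp, and 22 of each overlapped a footprint of the other replicate. Open coding promoters had a median of 5 footprints in replicate 1 (quartiles 4 and 6) and 4 in replicate 2 (quartiles 3 and 6). Widths and overlaps were not set beside those of all promoters. Positions are given in bp from the TSS nearest to the centre of the peak, negative upstream. For Vamp2 that TSS lies at position 69088510 of chromosome 11, and for Syp at position 7638638 of the X chromosome, both downstream of the gene's annotated start.

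Vamp2 had 4 footprints in replicate 1 and 3 in replicate 2, and all 3 of the latter overlapped the former. They were wide: the middle ones ran from -38 to -6 and from -35 to -4, and the downstream ones from 44 to 78 and from 51 to 75. The capitals of the printed Vamp2 stretch show those of the upstream side.

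Syn1 had 6 footprints in each replicate, of which 4 in replicate 1 and 5 in replicate 2 overlapped the other. The most distant of them ran from -166 to -153 in replicate 1 and from -165 to -157 in replicate 2. Syn2 had 4 in each, and 3 of them overlapped, among which the one from -60 to -53 had the same ends in both animals. Syp had 5 and 2, and both of those in replicate 2 overlapped replicate 1, the larger from -19 to 9 and from -14 to 9.

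Stx1a had 6 footprints in replicate 1 and 4 in replicate 2, Snap25 had 3 and 4, and Syt1 had 2 and 5. Cplx1 had 6 and 3, of which 2 overlapped, and these shared only 3 bases, the fewest of the 8. Footprint lists carry no strength, so a footprint seen in 1 replicate alone cannot be ranked against another.

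**Figure D3:**
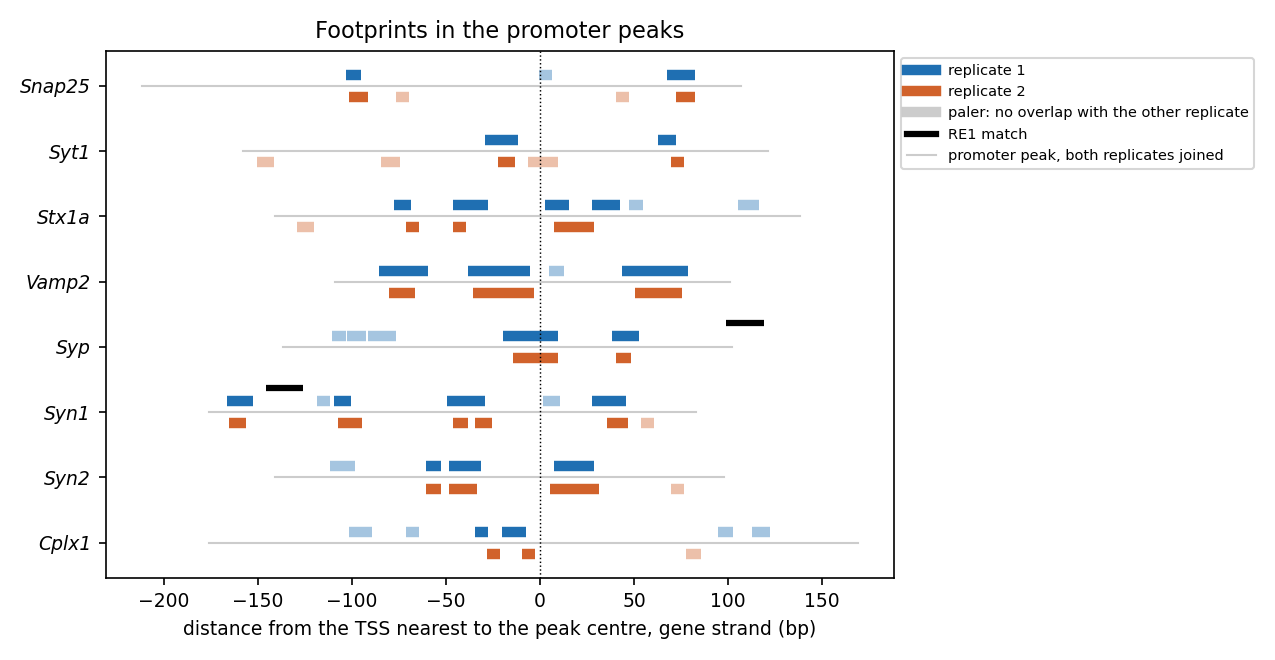
Footprints in the promoter peaks by distance from the TSS nearest to the peak's centre (x axis, bp, gene strand), replicate 1 above and replicate 2 below each gene's line, paler where the other replicate had no overlapping footprint, with RE1 matches as black bars. Of 36 and 31 footprints, 22 in each replicate overlapped, and the RE1 matches of Syp and Syn1 lie clear of footprints.

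Motifs were searched by their letters on both strands in the 300 bp around the centre of each promoter peak, and their share is given over 11170 shared promoter regions of the same length. A match describes letters only. How often footprints touch a match was not counted over all promoter regions. Touched and untouched matches below therefore describe these genes alone. RE1, a motif of 18 fixed positions searched with up to 3 mismatches, was found in 2 of the 8 promoters, Syp and Syn1, against 0.260% of promoter regions. These are the matches that carry the comparison:
Syp, chrX:7638737-7638757, plus strand: TCCAGCACCGTGGACAGAGCC
Syn1, chrX:20921130-20921150, minus strand: TTCAGCACCGCGGTCAGAGCC
Each differed from the motif at 1 of the fixed positions. The Syn1 match lay from -146 to -126 and the Syp match from 99 to 119. The Syp match is in sequence annotated as an exon in at least 1 Syp transcript and outside the annotated UTRs. Whether it is coding was not determined. The Syn1 match lay wholly inside the promoter peaks of both replicates, while only the first few bases of the Syp match reached into the ends of its peaks. No footprint touched either match in either animal.

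RE1 letters were also searched across the whole loci, a locus being the annotated gene extended by 20 kb at each end. A match was found in 4 of 8 loci, against 14.1% of coding loci. The 8 loci run from 43.9 to 553 kb, and a longer locus can hold more matches. This share was not read beside genes of similar locus length. The further matches were in an intron of Snap25, at 885 to 905 bp from its TSS (TTCAGCACCGCGGACAGCGAT, 2 mismatches), and 112 kb inside Syn2 with 3 mismatches. The Snap25 match lay outside the peaks used here but inside peaks of the longer list of both replicates, and a footprint touched it in replicate 1 only. The Syn2 match lay in no peak, in sequence also annotated as an exon of Timp4. Of the 3637 matches in the genome 4.67% overlapped a peak, and of the 4 matches in these loci 2 overlapped a peak.

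The GC box GGGCGG, the letters bound by Sp1-type factors, was found in 7 of 8 promoters, all but Syn1, against 69.2% of promoter regions. Of its 20 matches, 12 were touched by a footprint in replicate 1, 11 in replicate 2 and 9 in both. In Snap25 a match from -101 to -96 lay wholly inside a footprint of each replicate, and in Vamp2 the matches at -74 to -69 and -33 to -28 did. So did the match at -8 to -3 in Syp and that at 19 to 24 in Syn2. The EGR letters GCGNGGGCG, which can overlap a GC box, were found in Vamp2, Syp, Syn2 and Cplx1, 4 of 8 against 13.0%. Of these 5 matches, 4 were touched by footprints in both replicates, in Vamp2, Syp and Syn2. For neither motif was the touched share taken over all promoter regions.

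The NRF1 motif was found in Syp and Syn1, 2 of 8 against 12.2%. In Syn1 the match, from -165 to -156, is GCGCATGCGC, and footprints of both animals touched it. All but its last base are the first run of capitals in the printed Syn1 stretch. In Syp, footprints touched the match in replicate 1 only.

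The full cyclic AMP response element TGACGTCA was found in Snap25, from -18 to -11, and in Syn1, from -73 to -66, 2 of 8 against 4.23%. No footprint touched either match. AP-1 letters TGANTCA were found in Snap25 and Syp (2 of 8 against 3.94%), also clear of footprints. A TATA box (TATAAA) was found in Snap25 only, at -185 to -180, and 4.51% of promoter regions held one. The CCAAT box was found in Syt1 only (1 of 8 against 39.8%), and AAGATGGC, the YY1 letters, in Snap25 and Vamp2 (2 of 8 against 5.43%). The CTCF core (up to 1 mismatch), MEF2, the E-box CAGATG and RFX (up to 2 mismatches) were in none of the 8, against 8.57%, 2.33%, 9.72% and 11.1%. The ETS letters CCGGAAG were in none of the 8 either, and in 2123 of the 11170 promoter regions.

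The promoters also differed in CpG content. The ratio of observed to expected CpG dinucleotides was 0.814 for Syn2, 0.754 for Syn1, 0.726 for Vamp2, 0.685 for Cplx1, 0.585 for Stx1a, 0.573 for Syp, 0.549 for Snap25 and 0.483 for Syt1. Over all coding genes the quartiles were 0.218 and 0.768, with a median of 0.550. Snap25 and Syt1 were thus below the median of all genes, Snap25 barely so, and the others were above it.

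The 5′ end of Syn2 is shared with a noncoding RNA. Gm17733, annotated as a bidirectional promoter lncRNA, starts 67 bp upstream of the Syn2 TSS on the other strand and inside the Syn2 peak, so the height of that peak cannot be divided between them. None of the other 7 genes had the TSS of another gene within 500 bp of its promoter peak. The 8 genes have 36 annotated TSSs, and 12 of them, in 5 genes, lie over 1000 bp from the main one. At these 12, 0 had a peak in both replicates in the lists used here and 3 did in the longer lists, 2 of Stx1a, with heights of 0.643 in replicate 1 and 0.655 in replicate 2, and 1 of Syp, with 0.514 and 0.587.

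Distal open chromatin was uneven over the loci. A distal region lies over 2000 bp from every TSS annotated in GENCODE M21. The 8 loci held 16 shared distal regions, 6 in Syn2, 4 in Syt1, 2 each in Stx1a and Vamp2, 1 each in Snap25 and Syp, and 0 in Syn1 and Cplx1. Thus 6 of 8 loci had at least 1, against 46.7% of coding loci.

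Loci differ in length, and a longer locus can hold more regions, so each count was read beside the genes in the same 1 of 20 bins of locus length. Syn2, with a locus of 187 kb, had 6 where the quartiles of its bin were 1 and 3, and 5.93% of the genes there had 6 or more. Vamp2, with a locus of 43.9 kb, had 2, where 67.8% of its bin had none and 9.66% had 2 or more. Syt1, the longest at 553 kb, had 4, beside a bin median of 3. Syn1 and Cplx1 had none, as did 36.7% and 47.9% of the genes in their bins.

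In each replicate on its own the loci held 23 distal peaks in replicate 1 and 39 in replicate 2. Replicate 2 also had more peaks in the whole genome, 76440 against 63928, and distal peaks per replicate were not counted over all loci. Syt1 had 4 in replicate 1 and 14 in replicate 2, the widest gap of the 8. Whether that gap is particular to Syt1 was not tested. The 4 peaks of replicate 1 all recurred in replicate 2. Syn2 had 10 and 11, and Syn1 had 1 and 2, none of them overlapping. Cplx1 had 0 and 1. Of the 39 peaks of replicate 2, 27 lay in the longer list of replicate 1, against 16 in the shorter.

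**Figure D4:**
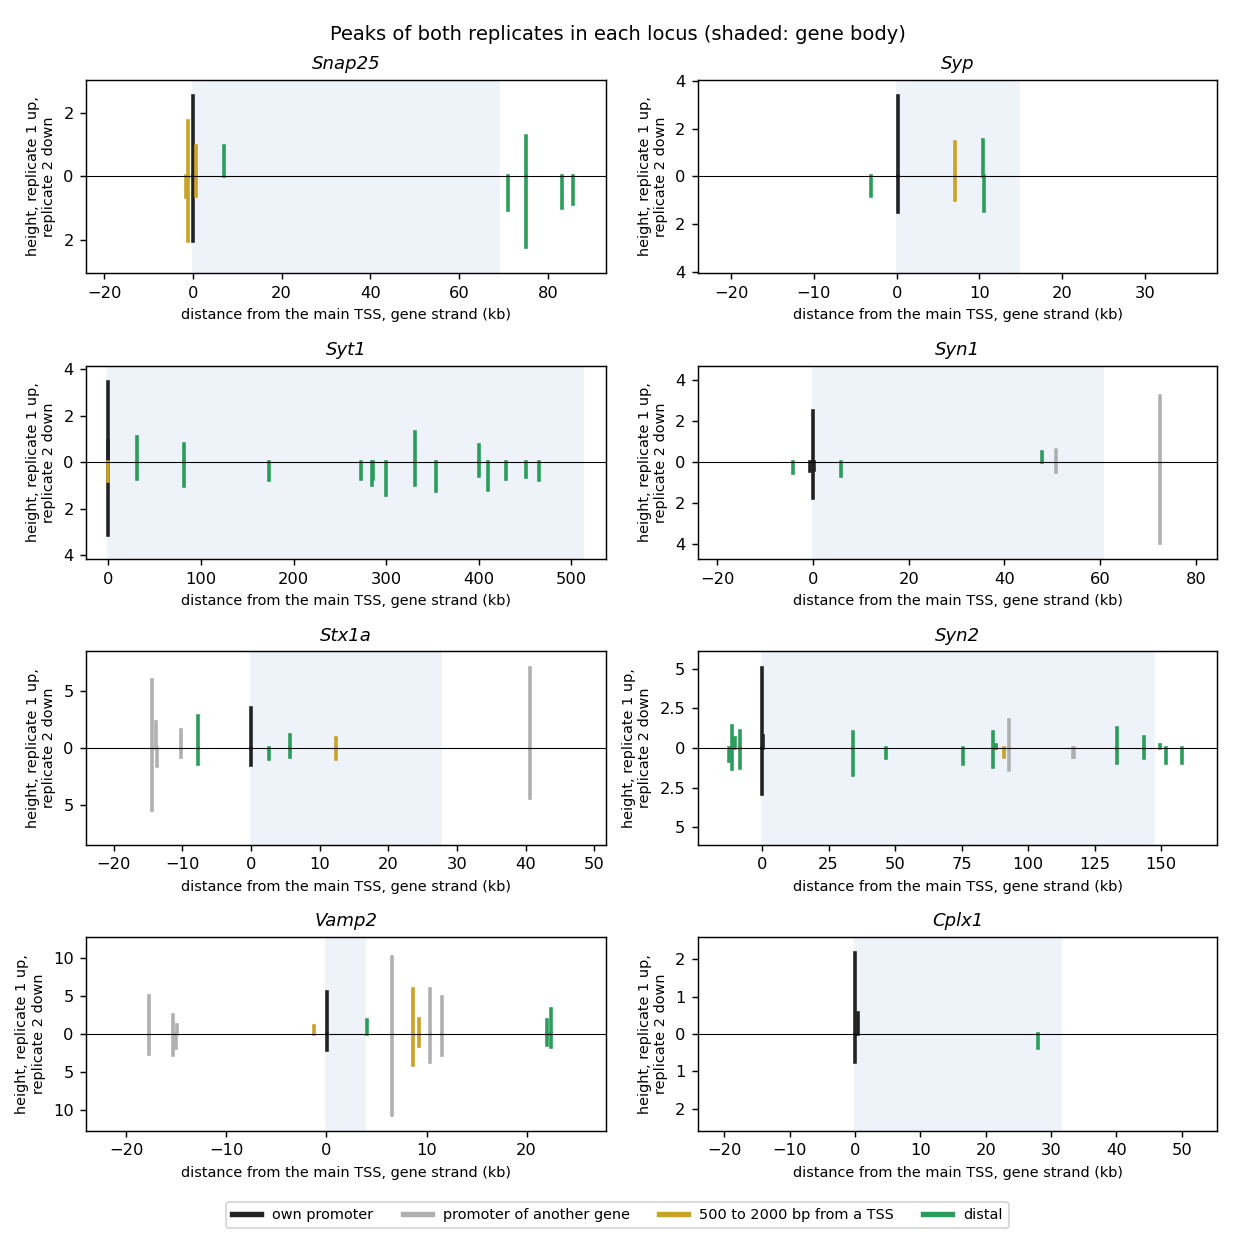
Peaks in each locus by distance from the gene's main TSS (x axis, kb, gene strand, gene body shaded), replicate 1 heights upward and replicate 2 heights downward in the authors' units, with an axis range of its own for each gene. Syt1 has 4 distal peaks in replicate 1 and 14 in replicate 2, and Cplx1 has 0 and 1.

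The geometric mean height of both replicates had a median of 1.13 over the 16 and 0.856 over all 23895 shared distal regions, and 14 of the 16 lay above the latter. All 16 held a footprint in both replicates, against 94.0% of all shared distal regions, and 9 had their midpoint in an intron, against 46.8%. The tallest in the Vamp2 and Stx1a loci are printed because their footprints cover recognisable letters, with capitals for bases inside footprints of both replicates.
Vamp2, chr11:69110801-69111080, plus strand: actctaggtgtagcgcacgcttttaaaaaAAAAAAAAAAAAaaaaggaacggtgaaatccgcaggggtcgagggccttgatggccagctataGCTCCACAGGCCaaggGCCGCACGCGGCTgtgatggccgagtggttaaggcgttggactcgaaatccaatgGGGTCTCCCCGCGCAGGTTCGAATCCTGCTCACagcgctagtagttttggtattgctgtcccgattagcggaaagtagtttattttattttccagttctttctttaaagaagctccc
Stx1a, chr5:135015581-135015780, plus strand: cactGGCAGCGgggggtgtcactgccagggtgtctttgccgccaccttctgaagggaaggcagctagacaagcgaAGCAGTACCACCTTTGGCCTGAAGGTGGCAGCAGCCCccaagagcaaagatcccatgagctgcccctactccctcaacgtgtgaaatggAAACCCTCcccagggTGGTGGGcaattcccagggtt

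The tallest shared distal region of the 8 loci by geometric mean, in that of Vamp2, had heights of 3.24 and 1.67, at percentile 96.7 of all shared distal regions. It lies 21.2 kb from the nearest annotated TSS of Vamp2 and 9.32 kb from that of Hes7, the nearest coding gene. RefSeq annotates a serine tRNA gene, n-TScga3, within it at 69110919 to 69111000. The other shared distal region of the locus, at chr11:69110401-69110620, had heights of 1.81 and 1.48 and holds a threonine tRNA gene, n-TTagt5. Neither tRNA start is among the TSSs used to define a distal region, so both regions count as distal, also among the 16. Both hold GGTTCGAATCC, the letters of the B box, an internal promoter element of tRNA genes, inside footprints of both animals. The search for the B box was added after these regions were seen, and 0.247% of distal regions held it. Genes for tRNA have near-identical copies elsewhere, and the sources used here do not say how reads with several matches were treated.

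The Vamp2 locus also holds the promoter of Per1, a circadian clock gene. Its tallest peak had heights of 10.1 and 10.6, above the 5.51 and 2.08 of Vamp2. In the Stx1a locus the promoters of Abhd11 (6.00 and 5.47) and Bud23 (7.11 and 4.38) were likewise taller than that of Stx1a.

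The tallest distal region near Stx1a had heights of 2.79 and 1.36 and lies 7.70 kb upstream of its TSS and 5.61 kb from that of Abhd11. It holds CCTGAAGGTGGCAG, a match with 2 mismatches to a longer CTCF motif, inside footprints of both replicates. That search was also added after the region was seen, and 2 of the 16 regions held a match, against 14.0% of all distal regions. The shorter CTCF core had no match in this region. It was found in 1 of the 16, in the Syp locus, against 20.8%. A lower region in an intron of Stx1a, at chr5:135029128-135029249, had heights of 1.12 and 0.804.

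The tallest distal region of Snap25, at chr2:136788441-136788680, had heights of 1.27 and 2.25. It lies 74963 bp from the TSS, beyond the 3′ end of the gene, and was taller in replicate 2, where it exceeded the promoter peak of 2.05. Syp had an intronic region at chrX:7648761-7649140, 4.85 kb from its nearest TSS, with heights of 1.54 and 1.46. In replicate 2 this was about the height of the Syp promoter, 1.48.

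All 4 shared distal regions of Syt1 were intronic, and the tallest by geometric mean, at chr10:108679781-108680034, had heights of 1.28 and 0.979. Of the 6 regions of Syn2, the tallest by geometric mean lies 11.2 kb upstream at chr6:115123302-115123700, with heights of 1.41 and 1.32. Another, in an intron at chr6:115169001-115169259, had a height of 0.997 in replicate 1 and 1.70 in replicate 2. A further region, at chr6:115126501-115126692 with heights of 1.07 and 1.23, holds GTTGCCATGGTGAT, a match to the RFX letters with 2 mismatches, inside footprints of both replicates. An RFX match was found in 1 of the 16 regions, against 11.2% of all distal regions.

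Other genes of the release pathway were followed by role. Of 55 genes in 5 role lists, 46 (83.6%) had a promoter peak in both replicates, 52 in replicate 1 and 46 in replicate 2, against 56.2%, 61.6% and 57.1% of all coding genes. Over those open in both, the median percentiles of the 55 were 38.1 in replicate 1 and 32.4 in replicate 2, below the 50.5 and 45.7 of the 8 genes. These are counts and medians of chosen lists, and the difference was not tested.

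The SNARE partners and regulators, which assemble, chaperone and recycle the SNARE complex, were open in 10 of 10, with median percentiles of 63.0 and 60.7. The tallest was Napa, which encodes alpha-SNAP, an adaptor for taking spent complexes apart, at 8.38 and 8.02. Vamp1, the relative of Vamp2, stood at 4.27 and 3.95, below Vamp2 in replicate 1 and above it in replicate 2. Vamp1 was named after its values were seen.

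Of 14 further synaptotagmin and Doc2 genes, 11 were open in both, with median percentiles of 25.9 and 23.2. The tallest by geometric mean was Syt11, at 5.06 and 4.23. Doc2a had no promoter peak in either replicate, and Syt2 (0.894) and Syt6 (0.604) had one in replicate 1 only. Syt1 thus ranked well above the middle of its family in both animals.

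None of the other 3 complexin genes was open in both replicates. Cplx2, the other forebrain complexin, had a peak of 1.46 in replicate 1 only, and one in both replicates in the longer lists. Cplx3 and Cplx4 had no peak in the lists used here, and none in both replicates in the longer lists. Cplx1 was thus the tallest of the complexin promoters in each animal while being the lowest of the 8.

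The active zone and priming genes, which dock vesicles and prepare them for fusion, were open in 19 of 20, with median percentiles of 40.9 and 37.9. The tallest by the geometric mean of both replicates was Ppfia3, which encodes the scaffold liprin alpha 3, at 7.86 and 4.94, and Rims3 had a peak in replicate 1 only (1.15). Another gene, Mtag2, starts within 500 bp of the Ppfia3 peak. Of 8 other vesicle membrane genes 6 were open in both, with median percentiles of 30.6 and 19.5. The tallest was Syn3, another synapsin, at 5.05 and 2.42, close to the 5.09 and 2.88 of Syn2. Sv2b (0.760) and Syngr3 (1.09) had a peak in replicate 1 only.

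Relatives that serve exocytosis outside synapses were used for contrast. Of the 8 found in the annotation, 7 were open in both replicates, with median percentiles of 73.1 and 73.7, and Vamp8 had a peak in replicate 1 only (0.712). The tallest was Snap29, at 10.8 and 6.07, with Pi4ka starting within 500 bp of the same peak. Snap23, the broadly expressed relative of Snap25, had heights of 5.33 and 3.10 against the 2.55 and 2.05 of Snap25. The medians of these relatives were thus higher than those of the 8 synaptic genes in both animals, and the difference was not tested.

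**Figure D5:**
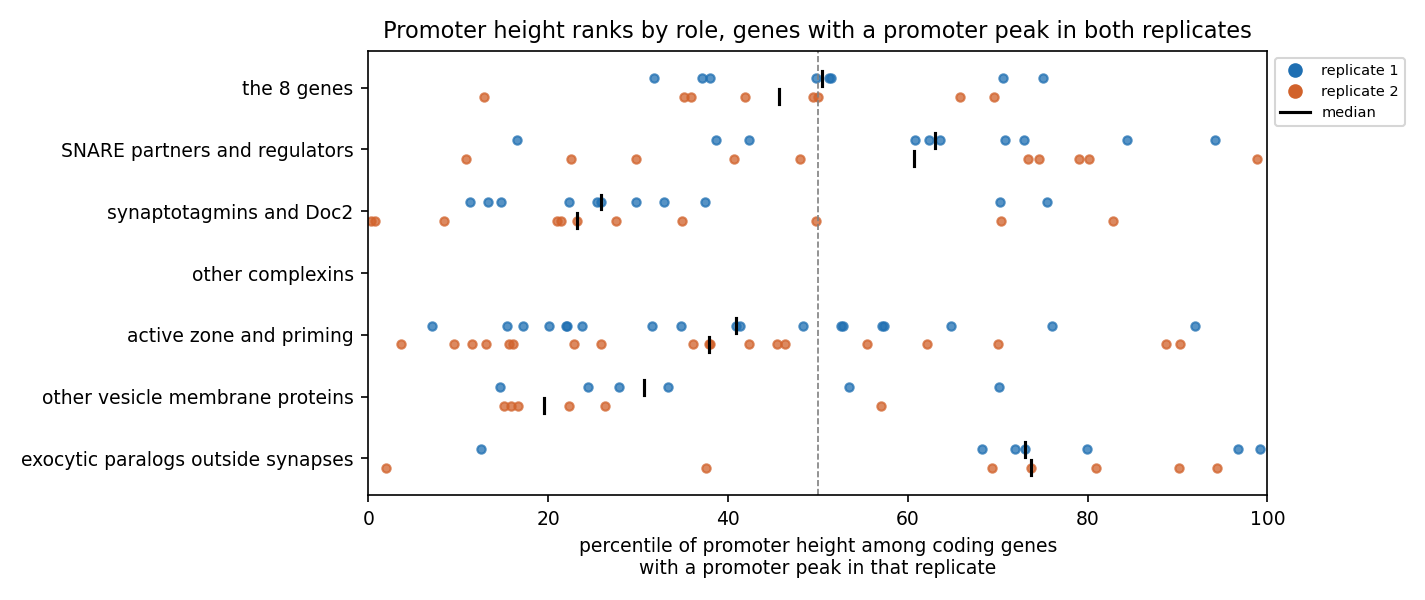
Percentile of promoter height (x axis, within each replicate) for genes with a promoter peak in both replicates, by role list, 1 point per gene and replicate, with a bar for each median and a dashed line at 50. The 8 genes have medians of 50.5 and 45.7, the exocytic relatives 73.1 and 73.7, and the other complexins have no point.

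Likeness in promoter height was measured as the distance between log2 heights over the 2 samples, against 53 genes of these lists. The gene nearest to Syn2, the tallest of the 8 by geometric mean (3.82), was Snap23 at a distance of 0.127. The gene nearest to Cplx1, the lowest (1.28), was Sv2c, with heights of 1.90 and 0.851, at a distance of 0.251. Such a distance describes only 2 values per gene.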

How the data were processed

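DNase-seq libraries of left cerebral cortex from 2 mice of 1 group were compared by position. Peak heights are a signal deposited by the authors, used with no rescaling. Per the file headers, coordinates are mm10. The deposited footprint files carry a constant score whose meaning is not stated, so footprints were used as positions. The authors' deposited FDR track (a q-value per stretch of bases) lists values under 0.05. The aligner, the peak and footprint callers, their settings, the treatment of CAST/EiJ alleles and the read depth are not stated (not given in the sources used here), so no interval that needs depth is printed.

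Of the 2 deposited peak lists per replicate, the shorter was used, following an earlier description of these data. What sets the lists apart is not stated. Overlapping intervals of a list were joined and kept the highest value. A region was shared where peaks overlapped by 1 bp or more. Peaks lay inside the reference on 21 of 21 chromosomes. A promoter was any TSS with 500 bp on both sides, in GENCODE M21. Its height was that of its tallest peak. Where transcription starts of other genes lie at the same peak, it counts for each.

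The members and gene lists were chosen with earlier results of these data known. Named were all 8 genes, the tallest gene and up to 4 genes without a peak in both replicates of each role list, the tallest shared distal region of each locus, and the nearest gene in height for the tallest and lowest member. Of 9 exocytic relatives, Vamp7 was not matched. The B box, the longer CTCF letters and the RE1 settings were added after the data were seen. No test was made, since 1 group of 2 samples has no contrast. Python 3.11.15, numpy 2.4.6, pandas 2.3.3 and matplotlib 3.10.9 were used, and the overlap code was tested on simulated data.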

Additional observations from a re-analysis of the deposited data

How the results depend on the processing

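Of 66 values recomputed under another setting, 62 stayed within the spread between replicates or within 1.5 times the main count. Many of the 66 are promoter heights of the 8 genes, which were identical in the longer lists and at the peak nearest to the most used TSS. The counts of 8 of 8 open promoters and 8 of 8 footprinted promoters held under every setting tried. A wider window or leaving out 1 replicate cannot lower the count of open promoters. The 100 bp window, peaks at or above the median height alone, and a stricter overlap could have lowered it and did not. The exceptions were all counts of shared distal regions, 16 as reported: 34 with the longer peak lists, 31 with 50 kb flanks and 10 in the gene bodies alone. Leaving out 1 replicate gave 23 to 39, the higher from replicate 2 alone, since a peak then needs no partner. The promoter window does not enter the definition of a distal region and was not varied for that count. The number of promoters with an RE1 match was 2 with up to 2 mismatches, with up to 4, and in a 1000 bp window, against 0.125%, 0.967% and 0.770% of promoter regions. No paired analysis was possible because there is 1 group. Depth is unknown, so a missing peak means none called in that list, and 2 animals give no error beyond their difference.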
